A study of Rattus norvegicus with 18 samples.

Results

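Transcripts of 8 genes that carry out or restrain regulated cell death were followed across 18 RNA libraries of rat cortical cultures. They are Capn1, Capn2, Cast, Casp9, Parp1, Aifm1, Ripk1 and Mlkl, and they were chosen by name, as the rows of the count tables that carry these symbols. Each of the 8 had 1 row among the 31463 rows of every table. Of the 14398 genes that passed the filter on low counts, 7 were members, and Capn1 was not.

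The cultures held neurons and glia from the cortex of newborn Wistar rats and were used on day 10 in vitro. Control cultures received no glutamate, and those of the Glutamate group were exposed to 100 µM glutamate, which models excitotoxicity, the injury of neurons by overactive glutamate receptors. In the Memantine group, 100 µM memantine, a blocker of NMDA-type glutamate receptors, was given together with glutamate. Cultures of the Glutamate_vesicles, Glutamate_secret and Glutamate_BPC groups received glutamate after a day with material secreted by glial progenitor cells, which were derived from human induced pluripotent stem cells. For Glutamate_vesicles this material was extracellular vesicles. The labels do not settle which of the other two groups was given a protein fraction and which the total secretome, so these names are kept as given. Cultures were harvested for RNA 4 h later, and each group had 3 libraries, numbered 1 to 3. The study's methods describe repeats of its experiments on cultures of unrelated cells, but neither they nor the labels say which libraries came from separate cultures, so p-values measure the spread between libraries, which may be technical.

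Glutamate that overstimulates NMDA receptors lets calcium into neurons, and several routes to death start from there. Calcium activates the proteases calpain 1 and calpain 2, which calpastatin restrains. Damaged mitochondria release proteins that start the caspase cascade through caspase 9, and the mitochondrial flavoprotein AIF, which can travel to the nucleus after overactivation of the DNA damage sensor PARP1, a route called parthanatos. In necroptosis, the kinase RIPK1 passes a signal from death receptors to MLKL, which breaches the plasma membrane. Activation by calcium, cleavage, relocation and phosphorylation act on proteins, and none of these is visible in transcript counts.

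Libraries held 8409574 to 17206354 counts, and ribosomal RNA took 3.04% to 43.0% of them, the latter in Control 1, where Capn2, Cast, Casp9, Parp1, Aifm1 and Ripk1 had their lowest counts, from 40 to 295. Expression is given as CPM, counts relative to the total of the library after TMM scaling. Summed CPM of 8 neuron markers was 2087 to 2790 in Control and 594 to 1123 in Glutamate. Memantine 1 and 2 had 3305 and 2273, and Memantine 3 had 648. The summed CPM of 6 astrocyte markers was 2565 to 5845 in Control and 5148 to 10511 in Glutamate, and that of 7 microglia markers was 38.0 to 100.0 and 92.7 to 300.0. In the fit, 8 of 8 neuron markers lay below 0 in Glutamate against Control, and 6 of 6 astrocyte, 7 of 7 microglia and 5 of 6 oligodendrocyte lineage markers lay above. Endothelial markers summed to at most 3.34 CPM in any library and markers of fibroblasts and mural cells to at most 18.7 CPM. The part of cell composition in the member values below was not tested, and in these bulk libraries fewer cells of a type and less RNA per cell cannot be told apart.

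No member passed an adjusted p of 0.05 by the quasi-likelihood test of edgeR with Benjamini-Hochberg adjustment in any of the 10 comparisons of groups, in the test across 6 groups, or in the comparison of the 4 glutamate groups without memantine with Control and Memantine. In Glutamate against Control, 0 of 7 members were called, and 0% of all genes tested. All 7 fitted differences lay above 0, with a median log2 fold change of 0.77, while 56.0% of all genes tested lay above 0 and their median was 0.08. At an unadjusted p below 0.05, the comparison held 1 of 7 members, Ripk1, and 8.11% of all genes. Capn2 was the only other member below that level in any comparison of groups, in Glutamate_vesicles against Control.

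**Figure D1:**
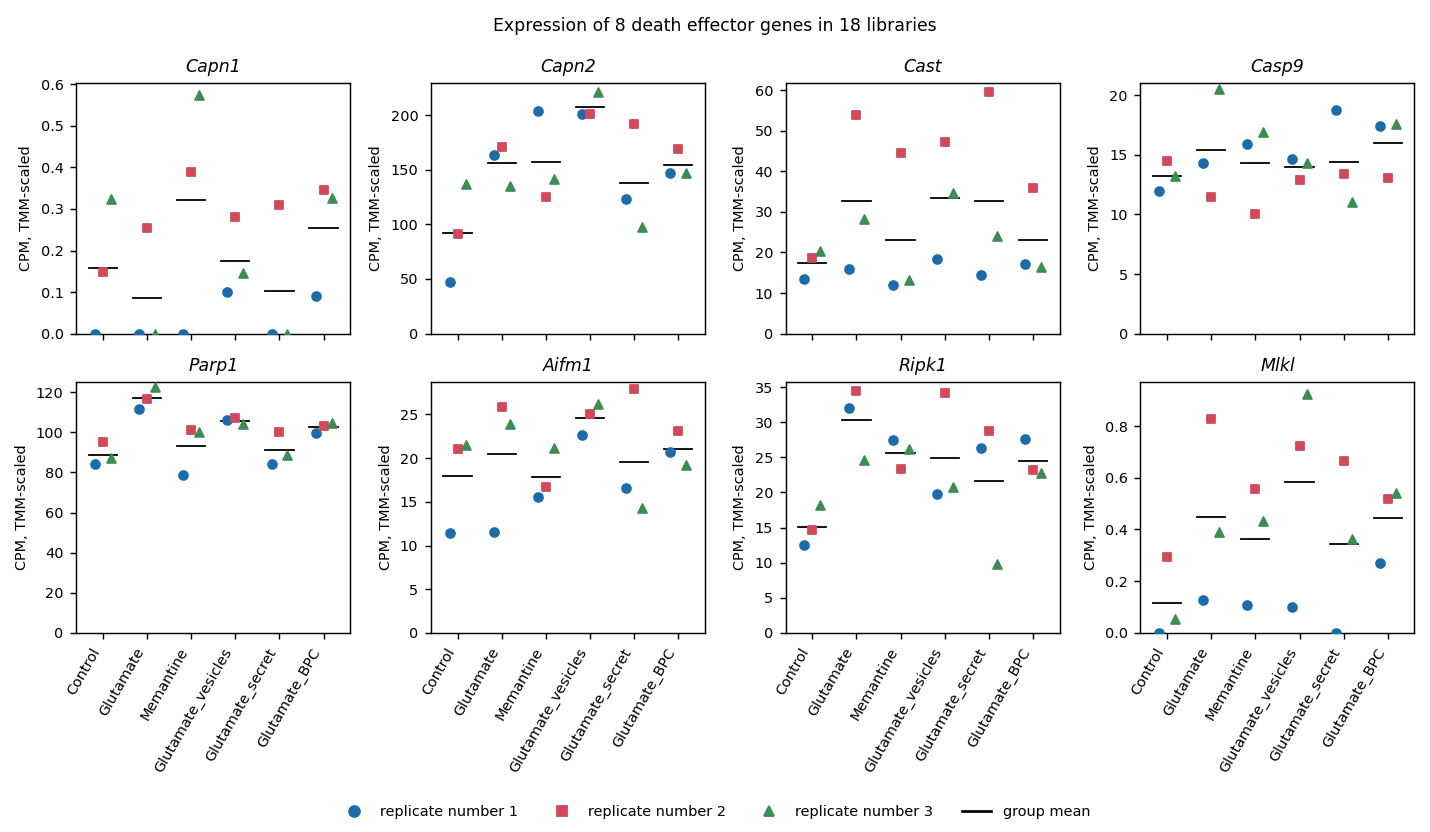
Expression of the 8 genes in 18 libraries, as CPM after TMM scaling, on linear axes that start at 0 and differ between panels. Symbols mark the replicate numbers and black lines the mean of 3 libraries. Ripk1 and Parp1 lie higher in every Glutamate library than in every Control library, while Cast and Mlkl are split by replicate number.

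Sequences before the transcription start are shown for Capn2, Cast, Parp1 and Ripk1. The group took the largest share of variation for Capn2, Parp1 and Ripk1, and the replicate number for Cast. Mlkl also varied most by replicate number, and its sequence is not shown. RefSeq start sites of the rat assembly GRCr8 were matched for 7 of the 8 members by symbol, and Capn1 was not among them. The authors used another build, rn6, so these positions are not those of the counted annotation. Each run is the 250 bases before the start, 5′ to 3′ on the gene's strand, with capitals for a GC box (GGGCGG) or a CCAAT box (CCAAT) on either strand. Capn2 is chr13:96732626-96732875 and Cast chr2:5816987-5817236, both on the minus strand, Parp1 is chr13:94839234-94839483 on the plus strand, and Ripk1 is chr17:31077168-31077417 on the minus strand.
Capn2: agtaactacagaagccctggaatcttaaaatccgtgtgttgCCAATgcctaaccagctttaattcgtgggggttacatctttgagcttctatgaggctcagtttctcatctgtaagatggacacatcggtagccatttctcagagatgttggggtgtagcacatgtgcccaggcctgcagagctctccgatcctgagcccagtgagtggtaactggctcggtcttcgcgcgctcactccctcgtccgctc
Cast: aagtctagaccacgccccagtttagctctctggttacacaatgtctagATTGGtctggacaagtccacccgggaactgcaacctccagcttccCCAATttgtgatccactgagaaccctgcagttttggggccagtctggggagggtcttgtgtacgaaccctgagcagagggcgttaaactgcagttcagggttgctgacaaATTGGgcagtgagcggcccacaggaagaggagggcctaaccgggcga
Parp1: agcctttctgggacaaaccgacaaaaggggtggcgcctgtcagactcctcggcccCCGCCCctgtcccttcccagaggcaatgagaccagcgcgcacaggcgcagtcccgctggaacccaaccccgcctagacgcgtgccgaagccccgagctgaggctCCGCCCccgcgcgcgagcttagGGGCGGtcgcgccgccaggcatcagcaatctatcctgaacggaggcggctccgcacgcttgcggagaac
Ripk1: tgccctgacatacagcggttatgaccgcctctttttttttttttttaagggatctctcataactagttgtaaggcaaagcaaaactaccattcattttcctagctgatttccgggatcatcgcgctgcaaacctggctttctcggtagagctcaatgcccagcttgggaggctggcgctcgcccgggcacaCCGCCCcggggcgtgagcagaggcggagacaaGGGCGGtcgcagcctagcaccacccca
Parp1 held 3 GC boxes and Ripk1 held 2, while Cast held 3 CCAAT boxes and Capn2 held 1. Of the other matched members, Casp9 held 3 GC boxes, Aifm1 held 1 CCAAT box and Mlkl neither. A GC box was found in 30.5% of all 33469 RefSeq promoters over the same 250 bases and a CCAAT box in 34.0%. None of the 7 held TATAAA (12.9% of all promoters), the cAMP response element TGACGTCA (1.59%) or the AP-1 site TGAGTCA (4.05%). Motifs here do not overlap one another, and a match describes letters, not a bound site.

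Capn2, which encodes the large subunit of calpain 2, was lowest in Control and highest with vesicles. Its level was 47.1, 91.2 and 137 CPM in Control 1, 2 and 3, and 164, 171 and 135 CPM in the Glutamate libraries. It was 203, 125 and 141 CPM with memantine and 201, 201 and 221 CPM with vesicles. Values of 123, 192 and 97.9 CPM were found in Glutamate_secret, and of 147, 169 and 147 CPM in Glutamate_BPC. Control 1 was the lowest library of all 18, and the vesicle libraries held 3 of the 4 highest values. The group means were 91.8 ± 45.1 CPM in Control, 156 ± 18.8 CPM in Glutamate and 208 ± 11.5 CPM in Glutamate_vesicles (SD, n = 3). Glutamate overlapped Control, because Control 3 exceeded Glutamate 3.

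The log2 fold change of Capn2 in Glutamate against Control was 0.77 (SE 0.37), with an adjusted p of 0.642 by edgeR's quasi-likelihood test and a 95% interval from -0.02 to 1.56. It was 0.45 without Control 1 and 1.18 without Control 3. In Glutamate_vesicles against Control it was 1.17 (SE 0.37), the unadjusted p was 0.00653 and the adjusted p 0.230 by the same test. Ranges of these groups did not overlap, as for 4 of 7 members (Capn2, Parp1, Aifm1 and Ripk1), against 9.72% of all genes tested that were higher in this way. DESeq2 gave an adjusted p of 0.0299 for Capn2 there. It called 489 of 14378 genes in that comparison, where edgeR called 2 of 14398. Without Control 1 the log2 fold change of Capn2 was 0.86 and the adjusted p 0.499 in edgeR. Against Glutamate, the vesicle libraries were again all higher, as were 2.89% of all genes, but the log2 fold change was 0.41 (SE 0.37) with an adjusted p of 1.00 by edgeR.

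Capn1, which encodes the large subunit of calpain 1, was barely detected. It had 0 to 8 counts in any library and 56 in all 18 together. No count was found in 6 libraries. The largest upper limit that a count of 0 allows was 0.857 CPM, in Control 1, counting error only. At this depth no difference in Capn1 between groups was detectable, and a ratio of the 2 calpains could not be formed.

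Cast, the gene of calpastatin, varied by replicate number more than by group. It was measured at 13.4, 18.6 and 20.4 CPM in Control 1, 2 and 3, and 15.9, 53.8 and 28.2 CPM in the Glutamate libraries. It was 11.9, 44.4 and 13.2 CPM with memantine and 18.3, 47.2 and 34.6 CPM with vesicles. The Glutamate_secret libraries had 14.3, 59.4 and 24.1 CPM, and those of Glutamate_BPC 17.1, 36.0 and 16.5 CPM. Library 2 was above library 1 in 6 of 6 groups and the highest in 5 of 6. By number, Cast ranged from 11.9 to 18.3 CPM in the libraries numbered 1, from 18.6 to 59.4 CPM in those numbered 2 and from 13.2 to 34.6 CPM in those numbered 3. In Glutamate against Control its log2 fold change was 0.90 (SE 0.63), with an adjusted p of 0.908 by edgeR's quasi-likelihood test. The log2 fold change of Cast in Glutamate against Control was 0.33 without Glutamate 2 and 1.23 without Glutamate 1. In the order of means, all 6 groups overlapped their neighbours.

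Calpastatin was also set against its targets within each library, as Cast CPM per 100 CPM of Capn1 and Capn2 together. Capn2 made up nearly all of that sum, at 47.1 CPM or more in every library, beside at most 0.575 CPM of Capn1. This quotient of counts is not scaled by transcript length and says nothing of the proteins' proportions. It was 28.5, 20.4 and 14.8 in Control 1, 2 and 3, and 9.72, 31.5 and 20.9 in the Glutamate libraries. Glutamate held both a lower and a higher value than any Control library. With memantine it was 5.86, 35.3 and 9.28, and with vesicles 9.14, 23.4 and 15.7. Glutamate_secret had 11.6, 30.9 and 24.6, and Glutamate_BPC had 11.6, 21.3 and 11.2. Outside Control, library 2 was the highest in every group. The mean log2 ratio was 0.14 lower in Glutamate than in Control, with an exact two-sided permutation p of 1.00, where 3 libraries against 3 cannot give less than 0.1.

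**Figure D2:**
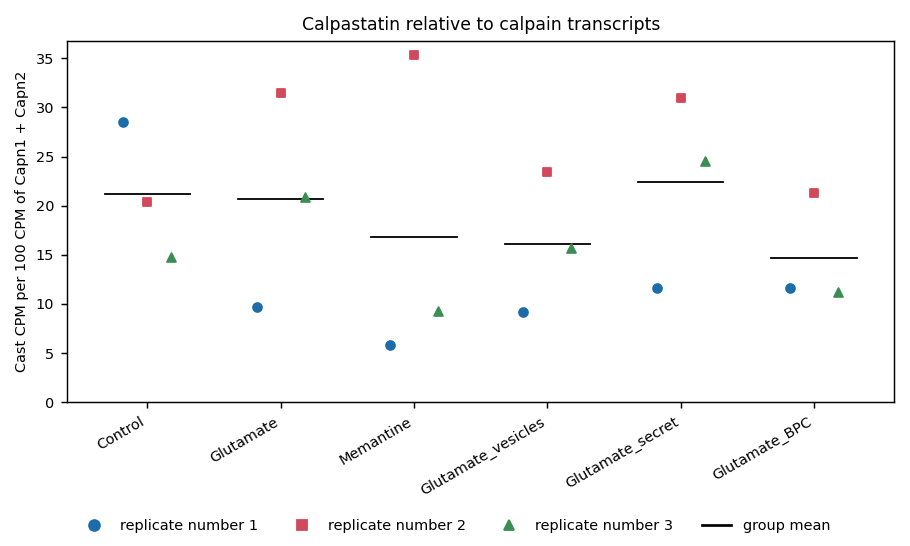
Cast CPM per 100 CPM of Capn1 plus Capn2 in each of 18 libraries by group, on a linear axis from 0. Symbols mark replicate numbers and black lines group means. The Glutamate libraries, from 9.72 to 31.5, enclose the Control libraries, from 14.8 to 28.5, and library 2 is highest in every group but Control.

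Casp9, the initiator caspase of the mitochondrial pathway, had group means between 13.2 and 16 CPM. Its level was 12, 14.5 and 13.2 CPM in Control 1, 2 and 3, and 14.3, 11.5 and 20.5 CPM in the Glutamate libraries. It was 15.9, 10.1 and 17 CPM with memantine and 14.7, 12.9 and 14.3 CPM with vesicles. Values of 18.7, 13.4 and 11 CPM were found in Glutamate_secret, and of 17.4, 13.0 and 17.6 CPM in Glutamate_BPC. Every group overlapped its neighbours in the order of means, and no gap between neighbours exceeded the larger SD of the pair. The highest library, Glutamate 3, was 2.04 times the lowest, Memantine 2. The log2 fold change in Glutamate against Control was 0.22 (SE 0.33), with an adjusted p of 0.999 by edgeR's quasi-likelihood test and a 95% interval from -0.48 to 0.91. It was -0.037 without Glutamate 3.

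Parp1, the DNA damage sensor of parthanatos, was the steadiest of the members. It was measured at 84.2, 95.1 and 87.1 CPM in Control 1, 2 and 3, and 112, 117 and 123 CPM in the Glutamate libraries. It was 78.6, 101 and 100.0 CPM with memantine and 106, 107 and 104 CPM with vesicles. The Glutamate_secret libraries had 84.4, 100.2 and 88.7 CPM, and those of Glutamate_BPC 99.7, 103 and 105 CPM. The Glutamate libraries were the 3 highest of all 18, and none of the other 15 reached them. The share of all genes with this order was not counted. The highest library was 1.56 times the lowest, and the coefficient of variation over the 18 libraries was 11.7%, against 19.3% to 75.0% for the other members tested.

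Parp1 and Ripk1 were the 2 of 7 members whose Glutamate libraries all exceeded every Control library, which 4.48% of all genes tested did. The log2 fold change of Parp1 was 0.40 (SE 0.23), with an unadjusted p of 0.103 and an adjusted p of 0.781 by edgeR's quasi-likelihood test. It was also the only member whose libraries all lay below those of Glutamate in each of the 4 treated groups, all of which share the Glutamate libraries as their reference. The log2 fold change against Glutamate was -0.33 (SE 0.23) with memantine, where 1.13% of all genes were lower without overlap. It was -0.15 (SE 0.23) with vesicles, where 3.38% were. For Glutamate_secret it was -0.36 (SE 0.23), against 2.01%, and in Glutamate_BPC -0.19 (SE 0.23), against 4.24%. Adjusted p in edgeR was 0.999 to 1.00 in all of these.

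Aifm1, which encodes the flavoprotein AIF, was highest with vesicles. Its level was 11.4, 21.0 and 21.5 CPM in Control 1, 2 and 3, and 11.5, 25.8 and 23.9 CPM in the Glutamate libraries. It was 15.6, 16.7 and 21.2 CPM with memantine and 22.6, 25 and 26.2 CPM with vesicles. Values of 16.5, 27.9 and 14.3 CPM were found in Glutamate_secret, and of 20.7, 23.1 and 19.2 CPM in Glutamate_BPC. Library 1 was the lowest of its group in 4 of the 6 groups, and Control 1 and Glutamate 1 were the lowest of all. The Glutamate_vesicles libraries all exceeded the Control libraries, at a mean of 24.6 ± 1.82 CPM against 18 ± 5.69 CPM (SD, n = 3). That difference was 0.45 on the log2 scale (SE 0.37), with an adjusted p of 0.768 by edgeR's quasi-likelihood test. Glutamate and Control overlapped almost fully, with a log2 fold change of 0.18 (SE 0.37) and an adjusted p of 0.999 in edgeR. It was -0.057 without Control 1 and -0.027 without Glutamate 2.

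Ripk1, the kinase that links death receptors to necroptosis and to inflammatory signalling, was lowest in Control. It was measured at 12.6, 14.6 and 18.1 CPM in Control 1, 2 and 3, and 32, 34.5 and 24.6 CPM in the Glutamate libraries. It was 27.5, 23.4 and 26.2 CPM with memantine and 19.7, 34.2 and 20.8 CPM with vesicles. The Glutamate_secret libraries had 26.3, 28.8 and 9.78 CPM, and those of Glutamate_BPC 27.6, 23.2 and 22.8 CPM. All Glutamate libraries exceeded all Control libraries, and so did those of Memantine, Glutamate_vesicles and Glutamate_BPC. Glutamate_secret was split, since its library 3 had the lowest CPM of all 18, from 54 counts (95% exact Poisson interval 7.34 to 12.8 CPM, counting error only). The means were 15.1 ± 2.82 CPM in Control and 30.4 ± 5.14 CPM in Glutamate (SD, n = 3).

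In Glutamate against Control, the log2 fold change of Ripk1 was 1.00 (SE 0.37), a 2.00-fold difference with a 95% interval from 1.16 to 3.46. The unadjusted p was 0.0159 and the adjusted p 0.443 by edgeR's quasi-likelihood test. The unadjusted p stayed below 0.05 in 24 of 25 alternative settings. Many of these leave out a library of another group, which hardly bears on this comparison. With each Control or Glutamate library left out in turn, the unadjusted p ran from 0.0158 (without Glutamate 3) to 0.0510 (without Control 1) in edgeR. Ripk1 was higher without overlap with memantine as well, as were 1.16% of all genes, with a log2 fold change of 0.76 (SE 0.37, adjusted p 1.00 in edgeR). In Glutamate_BPC against Control, Capn2, Parp1 and Ripk1 were higher without overlap, 3 of 7 members against 12.2% of all genes. No member was in Glutamate_secret, against 6.88%. These 5 comparisons share the Control libraries.

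Mlkl, the membrane-breaching effector of necroptosis, was close to the limit of detection. Its counts were 0, 6 and 1 in Control 1, 2 and 3, and 1, 13 and 4 in Glutamate. With memantine there were 1, 10 and 6, and with vesicles 1, 18 and 19. Glutamate_secret had 0, 15 and 2, and Glutamate_BPC 3, 9 and 5. The libraries numbered 1 held at most 3 counts, and those numbered 2 at least 6. The highest level, in Glutamate_vesicles 3, was 0.923 CPM. The log2 fold change in Glutamate against Control was 1.61 (SE 1.11), with an adjusted p of 0.894 by edgeR's quasi-likelihood test and a 95% interval from -0.75 to 3.96.

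**Figure D3:**
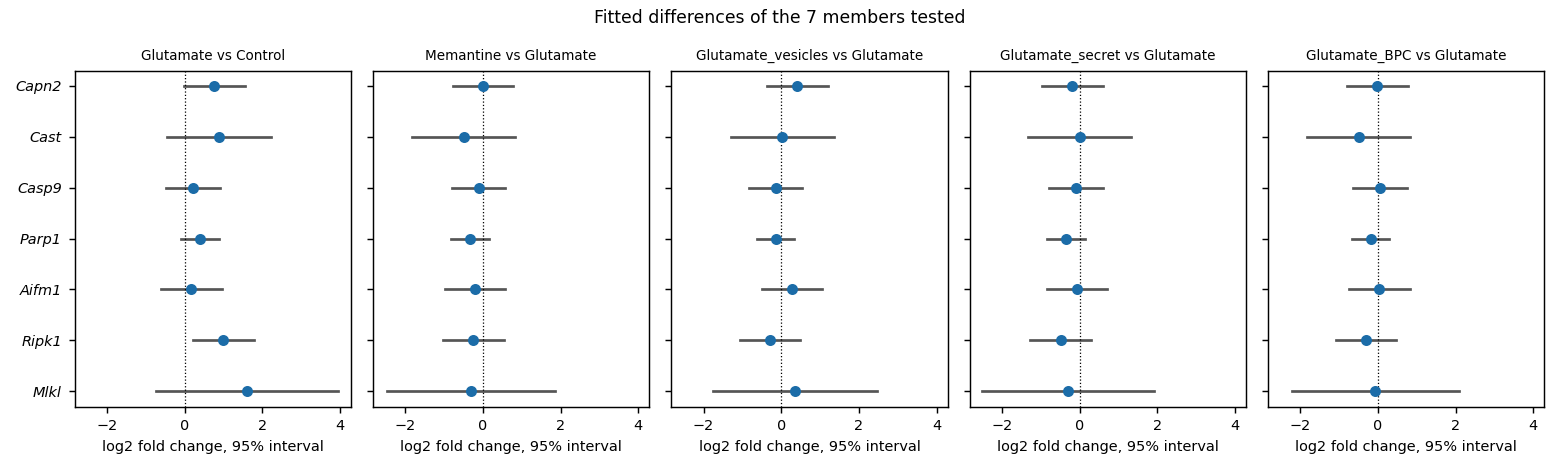
Fitted log2 fold changes of the 7 members tested in 5 comparisons, with 95% intervals from the quasi-likelihood fit. Points right of the dotted line at 0 are higher in the group named before vs. All 7 points lie right of 0 in Glutamate vs Control, the interval of Ripk1 there lies wholly above 0, and every interval in the other 4 panels includes 0.

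Against Glutamate, 0 of 7 members were called by edgeR with memantine, vesicles, Glutamate_secret or Glutamate_BPC, as were 0%, 0%, 0% and 0% of all genes, and 0 of 7 had an unadjusted p below 0.05, against 5.08%, 1.08%, 0.681% and 1.07%. The median log2 fold change of the members was -0.24, 0.03, -0.18 and -0.07, and that of all genes -0.02, -0.01, -0.01 and -0.05. With memantine, the 95% interval was -0.78 to 0.79 for Capn2 and -1.02 to 0.54 for Ripk1.

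Against Control, 0 of 7 members were called with memantine, vesicles, Glutamate_secret and Glutamate_BPC, where 0%, 0.0139%, 0% and 0% of all genes were. At an unadjusted p below 0.05 there were 0, 1, 0 and 0 members, against 1.12%, 11.6%, 11.8% and 11.3% of all genes. Capn2 was the member with vesicles. All 7 fitted differences lay above 0 in each of these but Memantine, where Aifm1 was at -0.02. Of all genes, 59.9%, 52.2%, 53.5% and 47.0% lay above 0. These comparisons share the Control libraries, so their directions are not independent. Between vesicles and memantine 0 of 7 members were called, as were 0% of all genes, and 0 of 7 passed unadjusted, against 7.22%.

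The 4 glutamate groups without memantine, 12 libraries, were compared with Control and Memantine, 6 libraries. This pooling was chosen with earlier results of these data known. In this pooled comparison, 7.28% of all genes were called and 19.7% had an unadjusted p below 0.05. The members held 0 of 7 by either measure. Their log2 fold changes ran from 0.12 for Casp9 to 0.95 for Mlkl, with 0.43 for Capn2 (SE 0.23) and 0.35 for Ripk1 (SE 0.23), and adjusted p of 0.322 to 0.814 by edgeR's quasi-likelihood test. In the same comparison, 6 of 8 neuron markers were called lower. Memantine 3, at a summed 648 CPM of these markers, lay within the 594 to 1123 CPM of the Glutamate libraries. Across 6 groups, 0 of 7 members were called by the F test, against 0.00695% of all genes, and 0 of 7 passed unadjusted, against 7.75%. Capn2 had the lowest unadjusted p there, 0.129.

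For all members tested but Parp1 and Capn2, the groups took the smaller part of the variation. Of the sum of squares of log2 CPM over 18 libraries, the group took 70.7% for Parp1, 57.4% for Capn2 and 45.8% for Ripk1, against a median of 22.4% over all genes tested. The replicate number took 65.0% for Cast and 60.5% for Mlkl, against a median of 42.2%, and 35.4% for Aifm1. Capn2 had the least, 2.29%. Casp9 left 62.8% to neither. These shares are not adjusted for there being 6 groups but 3 replicate numbers. By edgeR's quasi-likelihood F test across 6 groups, the unadjusted p was 0.510 for Parp1, 0.129 for Capn2 and 0.220 for Ripk1. With the groups ordered by their mean, neighbours overlapped in 5 of 5 pairs for every member but Parp1, for which Glutamate, the highest group, stood clear of Glutamate_vesicles, the next. In that pair of groups, 3.38% of all genes were lower with vesicles without overlap.

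**Figure D4:**
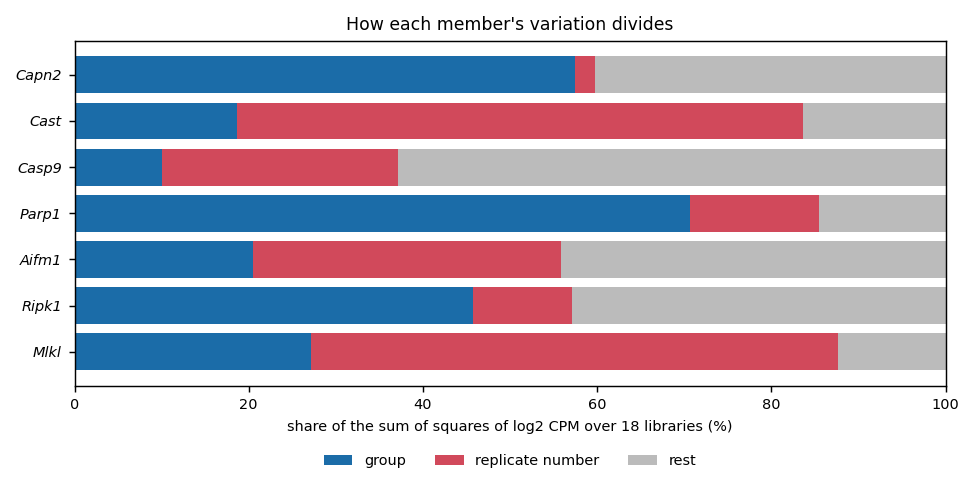
Shares of the sum of squares of log2 CPM over 18 libraries that the 6 groups, the 3 replicate numbers and the rest took, in percent, for the 7 members tested. The group takes the largest share for Parp1, Capn2 and Ripk1, and the replicate number for Cast and Mlkl. The shares are not adjusted for there being 6 groups but 3 replicate numbers.

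A test of the replicate number was added after the data had been seen, in a fit with group and number. By the quasi-likelihood F test of edgeR, 2 of 7 members differed by number, Cast (adjusted p 0.000994) and Mlkl (adjusted p 0.0118), against 60.4% of all genes. In libraries numbered 2 against those numbered 1, Cast was higher by 1.47 on the log2 scale (SE 0.24, adjusted p 0.000342 in edgeR), in 6 of 6 groups. Mlkl was higher by 2.46 (SE 0.63, adjusted p 0.00377) and Aifm1 by 0.52 (SE 0.22, adjusted p 0.0487), both also in 6 of 6 groups. Of all genes, 32.8% were higher there. Without Control 1 the call of Aifm1 was lost, at 0.44 on the log2 scale and an adjusted p of 0.0994 in edgeR, while Cast stood at 1.53 (adjusted p 0.00134) and Mlkl at 2.42 (adjusted p 0.00610). Ribosomal RNA was 13.4% to 43.0% of counts in libraries numbered 1 and 3.04% to 8.15% in those numbered 2, and oligodendrocyte lineage markers summed to 155 to 379 and 385 to 910 CPM. The part of these in the difference was not tested.

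The wider pathways were read from lists that leave out the members. The calpain system had 6 of 7 listed genes tested, of which 0 were called in Glutamate against Control or in the pooled comparison, and 1 of 6 lay above 0 in each. Capns1, the small subunit shared by both calpains, had 157 ± 77.0 CPM in Control and 146 ± 38.4 CPM in Glutamate (SD, n = 3). Its log2 fold change was -0.11 (SE 0.41), beside 0.77 for Capn2. Among less typical calpains, Capn10 was at -0.32 (SE 0.31), Capn5 at -0.04 (SE 0.30) and Capn6 at 0.44, the latter from few counts and with an SE of 1.40.

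Of 17 genes for caspases and the apoptosome, all tested, 0 were called in Glutamate against Control, with a median log2 fold change of 0.34, beside 0.08 over all genes. In the pooled comparison 1 of 17 was called, against 7.28% of all genes, so the list held no larger share of calls than the genes at large. The called gene was Casp4, an inflammatory caspase that senses bacterial lipopolysaccharide inside cells. Casp4 ranged from 50.0 to 64.0 CPM in Control, from 71.2 to 94.9 CPM in Glutamate and from 31.7 to 73.9 CPM with memantine. The pooled log2 fold change was 0.84 (SE 0.21), with an adjusted p of 0.0239 by edgeR's quasi-likelihood test. The call was lost without Control 2 (adjusted p 0.0792 in edgeR), Control 3 (0.0615), Memantine 1 (0.0736), Memantine 2 (0.0771) or Glutamate_vesicles 3 (0.0507). Without Memantine 3 the log2 fold change was 1.09 and the adjusted p 0.00155 in edgeR. In the same comparison Diablo, which relieves caspases of their inhibitors, had a log2 fold change of 0.78 (SE 0.29, adjusted p 0.128).

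None of the 9 tested genes of parthanatos and poly(ADP-ribose) metabolism was called in either comparison. Parp2, a second DNA damage sensor, differed by -0.03 (SE 0.41) between Glutamate and Control, and Rnf146, a ligase for poly(ADP-ribose)-marked proteins, by -0.16 (SE 0.42). Adprs, which removes ADP-ribose from proteins, was at 0.47 (SE 0.55) and Xrcc1, a repair scaffold recruited by PARP1, at 0.28 (SE 0.41).

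Of 9 tested genes of necroptosis and the TNF receptor complex, 0 were called in either comparison. Tnfrsf1a, the TNF receptor upstream of RIPK1, had 23.4, 61.5 and 77.5 CPM in Control and 92.3, 104 and 121 CPM in Glutamate, without overlap. Its log2 fold change was 0.96 (SE 0.42, adjusted p 0.565 by edgeR's quasi-likelihood test), beside 1.00 for Ripk1. Fadd, the adaptor of death receptors, was at 0.75 (SE 0.52, adjusted p 0.906). In the pooled comparison, Cyld, a deubiquitinase that acts on RIPK1, was at -0.93 (SE 0.28, adjusted p 0.0557) and Tradd, an adaptor of the TNF receptor, at 0.95 (SE 0.42, adjusted p 0.217). Cyld was 20.0, 48.1 and 14.2 CPM in Memantine 1, 2 and 3, with Memantine 2 the highest library of all. It ranged from 20.5 to 24.6 CPM in Control and from 6.52 to 23.7 CPM in the glutamate groups without memantine.

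Of 8 neuronal substrates of calpain, 0 were called in Glutamate against Control. None of them had a fitted value above 0 there, while 56.0% of all genes did, and their median log2 fold change was -0.55, beside 0.08 over all genes. In the pooled comparison, which counts Memantine with Control, 3 of 8 were called by edgeR's quasi-likelihood test, each lower, against 7.28% of all genes called in either direction. The pooled median was -1.19 for the substrates and 0.0075 for all genes. Mapt, the gene of tau, had a log2 fold change of -1.60 (SE 0.34, adjusted p 0.00946), Dpysl2, or CRMP2, an axonal protein, a value of -1.16 (SE 0.25, adjusted p 0.00931), and Cdk5r1, whose product p35 calpain cuts to p25, a value of -1.80 (SE 0.41, adjusted p 0.0146). With memantine, Mapt was 3158, 1749 and 546 CPM in libraries 1, 2 and 3, and Dpysl2 was 880, 733 and 226 CPM. Memantine 3, low in both, was also low in neuron markers, and Map2 belongs to that marker list as well as to the substrates. Cdk5r1 lost its call without Control 1, at a log2 fold change of -1.23 with an adjusted p of 0.0682 in edgeR, and without Memantine 1, at -1.25 with an adjusted p of 0.0841. Mapt and Dpysl2 were called in each fit that left out 1 library, and without Memantine 3 all of Mapt, Dpysl2 and Cdk5r1 were.

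Members differed in the company their patterns kept. Over the 18 libraries, which share groups, depth and ribosomal RNA share, Cast was closest to Mlkl (Pearson r 0.75). Among Parp1, Capn2 and Ripk1, for which the group took the largest share of variation, Capn2 and Ripk1 were the most alike (r 0.69). Cast and Casp9 ran opposite (r -0.50). Among all genes tested, the pattern of Capn2 was nearest to Ppp1r13l (r 0.94), Mapk14 (r 0.92) and Tut1 (r 0.92). That of Cast was nearest to Csnk1a1 (r 0.95), Mtmr2 (r 0.94) and Ell2 (r 0.94), and that of Ripk1 to Zfand2a (r 0.86), Stk40 (r 0.85) and Pdpn (r 0.85). Parp1 was nearest to Kif1c (r 0.82) and Afg3l2 (r 0.81), and a row known only by a transcript identifier was the third. Aifm1 was nearest to Sorbs3 (r 0.94), Btd (r 0.92) and Ppm1f (r 0.92), Casp9 to Atp5f1a (r 0.85), Ctnnbl1 (r 0.84) and Lman2l (r 0.84), and Mlkl to Tlr13 (r 0.88), Wdhd1 (r 0.88) and Tlr3 (r 0.87).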

How the data were processed

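RNA was sequenced from 18 libraries in 6 groups of 3. The deposited values are expected counts per gene, for which the authors mapped reads to Ensembl transcripts of the rat with Salmon and collapsed them to genes with tximport, without scaling between libraries. The submitters' processing notes also name STAR and the build rn6. Platform and library kit differ between the paper and the labels, and no strand setting is named for the counting, so reads of overlapping genes may be shared.

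Expected counts were rounded, which the test design, written for counts, did not foresee. Genes were filtered with filterByExpr of edgeR 4.0.16 in R 4.3.3 (minimum count 10, minimum total 15), and library sizes were scaled by TMM. A model with 1 mean a group was fitted to all 18 libraries and tested by two-sided quasi-likelihood tests with Benjamini-Hochberg adjustment over 14398 genes. The code was tested on simulated data. Log2 CPM used a prior count of 2. Alternatives were other size factors, DESeq2 1.42.0, the likelihood-ratio test of edgeR, no filter, a replicate block, ribosomal RNA rows left out, each library left out in turn and, added after seeing the data, the log2 ribosomal RNA share as a covariate.

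Same-numbered libraries deviated together in 5 of the 10 comparisons of groups, by a correlation above 0.1 for each number. Over the 10 comparisons the correlation was 0.31 to 0.77 for number 1 and 0.47 to 0.89 for number 2. For number 3 it ran from -0.45 to 0.57, so only number 3 failed this rule. The labels do not say what a number marks. The study's supplement names a day covariate that was removed before its clustering plots, without tying it to the numbers.

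The members, the gene lists and the pooled comparison were chosen with earlier results of these data known. From each list, the rule names the 2 genes of smallest p across 6 groups and the 2 of smallest p in Glutamate against Control. For each member it names the 3 genes of most similar log2 CPM.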

Additional observations from a re-analysis of the deposited data

How the results depend on the processing

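The count of members called kept its value of 0 under all 25 alternatives in 11 of the 12 tests over genes. The exception was Glutamate_vesicles against Control, where DESeq2 called 1 member, Capn2. Over all genes, DESeq2 called 489 of 14378 there, and edgeR 2 of 14398. With the replicate block 0 members were called in each of these tests. The block changed no call of a member, and it gave Ripk1 0.96 and Capn2 0.77 on the log2 scale in Glutamate against Control. Adjusted p by edgeR's quasi-likelihood test was lower with it, 0.170 for Ripk1 and 0.329 for Capn2, against 0.443 and 0.642. For Capn2 in Glutamate_vesicles against Control it was 0.0750, against 0.230 without the block. With each library left out in turn, Casp9 ran from -0.037 to 0.40 and Aifm1 from -0.057 to 0.46 in Glutamate against Control. Cast ran from -1.38 to 0.071 in Memantine against Glutamate and from -0.96 to 0.074 in Glutamate_BPC against Glutamate, above 0 only without Glutamate 2. The log2 ratio of Cast to the calpains in Glutamate against Control ran from -0.52 to 0.32, and was 0.10 without Control 1 and 0.32 without Glutamate 1. The cause of these changes was not tested. The ratio of Capn2 to Capn1 was not run, because Capn1 had no counts in 1 Control and 2 Glutamate libraries. Over all genes, the pooled comparison held 1048 calls, against 1794 by DESeq2, 2393 with the replicate block and 2126 with the ribosomal RNA share as a covariate. Glutamate against Control held 0, against 235 by DESeq2, 45 by the likelihood-ratio test, 166 with the block and 32 with the covariate. Capn1 and Mlkl rest on few counts, which limits the precision of their group differences.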
